A study of Mus musculus with 7 samples.

Results

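Immediate early genes are switched on within minutes of a stimulus, without new protein synthesis, by kinase cascades that act on factors already bound to their promoters. Several encode transcription factors that carry the response on to later genes, and others encode proteins that end it. In the artery wall they are known to respond to growth factors, stretch, injury and handling of the tissue. The group examined here held 10 genes chosen by name: Fos, Fosb, Jun, Junb, Egr1, Egr3, Atf3, Ier2, Zfp36 and Dusp1. All probe sets of the array annotated to exactly one of these symbols were taken, which gave 12 of 45101 probe sets and 10 of 18194 named genes.

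RNA came from the carotid artery of mice and was measured on 7 Affymetrix Mouse 430 2.0 arrays. On 4 arrays the offspring had a hypercholesterolemic mother without ApoE (ApoE-/-) and a wild-type father, and on 3 arrays a normocholesterolemic wild-type mother and an ApoE-/- father. All offspring were ApoE-/+, so both groups carried 1 null allele of the gene for a protein that clears lipoproteins from plasma. The labels give no cholesterol level for the ApoE-/- father. The labels give no age, sex, litter, strain or batch. Whether the arrays hold RNA of separate animals is not stated either, so the p-values speak only of the spread among these 7 samples. Both parents differ between the crosses, and the array numbers in the labels run through one cross before the other, so effects of the mother, the father and the array order cannot be told apart.

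The dissected arteries had been stored at once in liquid nitrogen, per the labels. All 6 smooth muscle, 6 endothelial, 5 fibroblast and 6 macrophage markers looked up lay above the bacterial probe sets on every array. The highest of those 27 bacterial probe sets, used as the background level, was at most 22.0 on any array, and median signals were 36.0 to 42.1. The array of wild-type mother 2 stood apart, with a Xist signal of 41.2 against 5174 to 5931 on the other 6 arrays. Those 6 include every ApoE-null mother array. Whether wild-type mother 2 differed from them in sex, which the labels do not give, was not tested. As a separate matter of RNA quality, the same array had the highest quotient of the 3′ over the 5′ control probe set for Gapdh, at 7.80. This quotient is larger in degraded RNA. The mean quotient was 5.78 ± 0.675 with an ApoE-null mother and 6.06 ± 1.51 with a wild-type mother (SD, n = 4 and n = 3, two-sided exact permutation p = 0.8286, where the smallest possible p is 0.0286).

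None of the 10 genes passed the test between the crosses that was fitted across all probe sets. Most had lower means with an ApoE-null mother. The log2 fold change was negative for 8 of the 11 member probe sets tested, where 50.6% of all probe sets were negative. The 3 positive ones were Egr3, Dusp1 and 1 of the 2 Jun probe sets, while the other Jun probe set was at only -0.03. Many of the members deviated in the same direction on an array, so these signs are not separate observations. Fold changes ran from -0.66 for Atf3 to 0.48 for Egr3 on the log2(signal + 2) scale, with a median of -0.28, against a median of -0.0041 over all 27027 probe sets tested. Adjusted p-values were 0.598 to 0.978 (limma with Benjamini-Hochberg adjustment). At the threshold of 0.05, 0.0037% of all probe sets passed in either direction, which was 1 probe set, and 0 of the 11 member probe sets passed. At an unadjusted p under 0.05, 2 of 11 were lower (Zfp36 and Atf3) and 0 were higher, where 3.96% of all probe sets were lower and 4.30% were higher. The groups overlapped for all 11, while 4.01% of all probe sets were lower without overlap and 4.01% higher without overlap. Gene positions below are from RefSeq on GRCm38.p6.

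**Figure D1:**
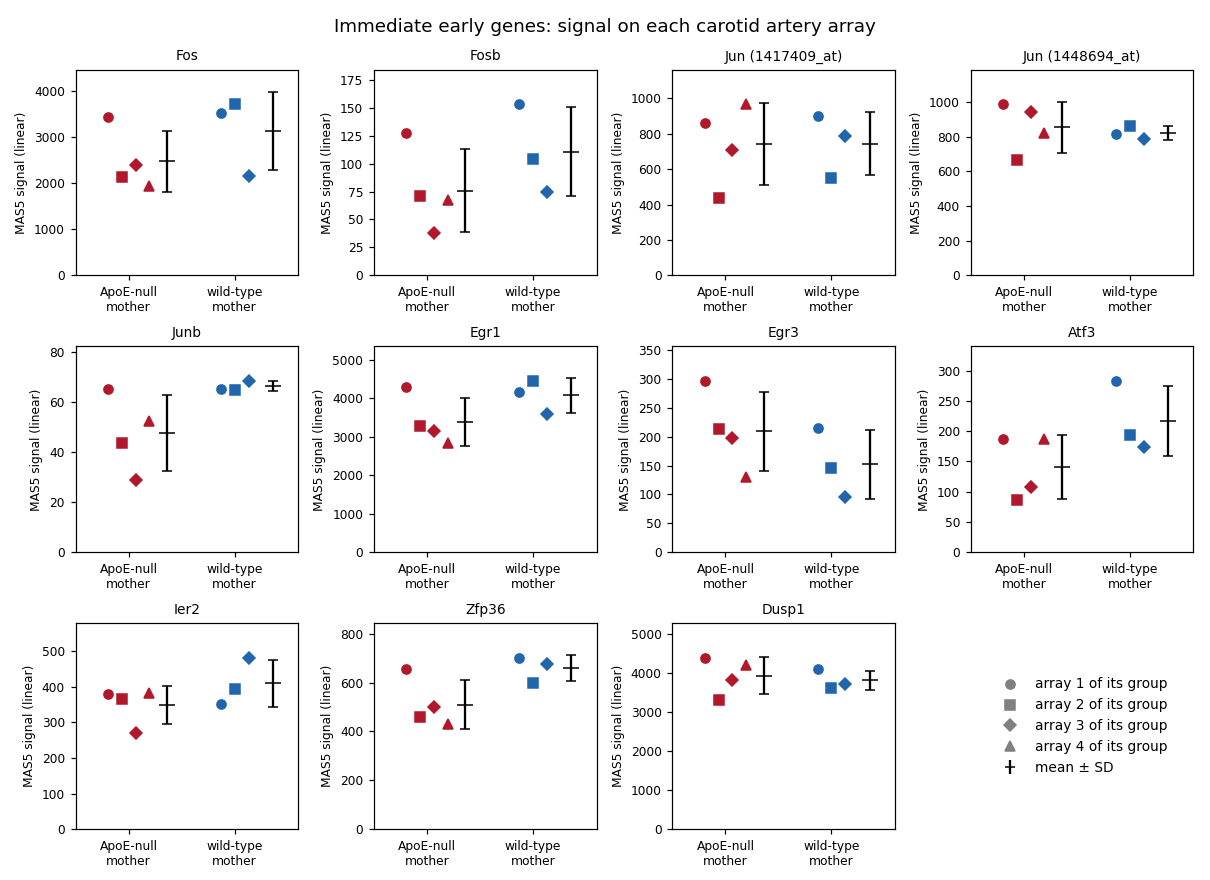
MAS5 signal (linear scale, from 0) of the 11 tested probe sets on each array, with ApoE-null mother arrays in red and wild-type mother arrays in blue, and the mean ± SD beside each group. Array numbers only name the arrays and pair nothing between groups. ApoE-null mother 1 (red circle) lies at or near the wild-type mother level for Fos, Junb, Egr1 and Zfp36, and the groups overlap in every panel.

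The promoters of these genes hold sites for factors that signals activate, and some are shown as background. A link between these sites and the signals on the arrays was not tested. RefSeq windows of 250 bases before to 50 bases after the gene start (GRCm38.p6) matched 7 of the 10 genes: Fos, Fosb, Jun, Junb, Atf3, Zfp36 and Dusp1. The 4 printed are those of 3 genes whose signals varied widely between arrays and of Dusp1, which varied little. Each is written 5′ to 3′ along the gene's strand, and capitals mark TGACG, the core of the site of CREB and ATF factors, on either strand (CGTCA where it lies on the other strand). For Fosb the start used by the promoter table lies inside the gene's listed span.
Fos chr12:85473640-85473939 (+ strand): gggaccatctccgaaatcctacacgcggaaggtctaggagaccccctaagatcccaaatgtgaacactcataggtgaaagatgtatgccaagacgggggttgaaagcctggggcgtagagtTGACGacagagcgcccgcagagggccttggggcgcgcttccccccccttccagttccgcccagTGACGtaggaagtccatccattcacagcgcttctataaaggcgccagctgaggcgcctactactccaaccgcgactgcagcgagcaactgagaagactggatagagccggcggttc
Fosb chr7:19309996-19310295 (- strand): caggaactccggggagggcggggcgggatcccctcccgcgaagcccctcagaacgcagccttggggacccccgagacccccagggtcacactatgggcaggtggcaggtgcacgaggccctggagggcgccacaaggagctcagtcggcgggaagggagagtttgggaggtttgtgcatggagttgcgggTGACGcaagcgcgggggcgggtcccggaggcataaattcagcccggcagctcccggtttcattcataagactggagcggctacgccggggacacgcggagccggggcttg
Atf3 chr1:191183284-191183583 (- strand): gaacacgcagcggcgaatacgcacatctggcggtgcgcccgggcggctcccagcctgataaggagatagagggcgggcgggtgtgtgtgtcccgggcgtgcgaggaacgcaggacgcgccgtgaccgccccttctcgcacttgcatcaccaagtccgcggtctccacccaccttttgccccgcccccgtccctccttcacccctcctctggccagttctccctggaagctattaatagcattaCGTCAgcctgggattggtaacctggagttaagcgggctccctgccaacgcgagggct
Dusp1 chr17:26508423-26508722 (- strand): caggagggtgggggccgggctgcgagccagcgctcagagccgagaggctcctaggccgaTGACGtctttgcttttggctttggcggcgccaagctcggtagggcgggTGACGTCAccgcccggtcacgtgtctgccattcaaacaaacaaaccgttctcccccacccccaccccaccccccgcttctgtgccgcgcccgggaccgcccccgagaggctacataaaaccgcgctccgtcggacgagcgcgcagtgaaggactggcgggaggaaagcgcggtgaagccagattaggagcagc
TGACG was present in 5 of the 7 windows (Fos, Fosb, Junb, Atf3 and Dusp1), and in 20.8% of 32851 windows of the same length in the genome. Every window printed holds it, while those of Jun and Zfp36, which are not printed, do not. In Fos the matches began 129 and 66 bases before the gene start, in Fosb 60 and in Atf3 7. Dusp1 had the full palindrome TGACGTCA, 143 bases before its start, and another TGACG at 191 bases. The palindrome contains TGACG on both strands and was found in 1.79% of all windows. The CArG box, the site of serum response factor, was matched in Zfp36 only among the 7, and in 1.63% of all windows. The EGR site GCGNGGGCG was matched in Fosb and Zfp36, and in 5.55% of all windows. The AP-1 site TGANTCA was matched in 0 of the 7 windows, and in 7.81% of all windows. TATAAA was matched in Fos and Junb, and in 13.6% of all windows. All motifs were searched on both strands, and a match shows letters in this window only.

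Fos (probe set 1423100_at, chr12:85473890-85477274) and Fosb (1422134_at, chr7:19302696-19310118) encode the Fos subunits of AP-1, which bind DNA as dimers with a Jun protein. Fos had signals of 3431, 2141, 2391 and 1949 with an ApoE-null mother, against 3516, 3720 and 2165 with a wild-type mother. The array of ApoE-null mother 1 lay with the higher pair of the other cross, and wild-type mother 3 lay among the remaining ApoE-null mother arrays. The mean was 2478 ± 660.4 with an ApoE-null mother and 3134 ± 845 with a wild-type mother (SD, n = 4 and n = 3), a log2 fold change of -0.33 (SE 0.22; limma, adjusted p = 0.717). Single arrays moved it from -0.19, when wild-type mother 2 was left out, to -0.58, when wild-type mother 3 was.

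Fosb had signals of 127.2, 70.8, 38.1 and 67.5 with an ApoE-null mother, against 153.3, 104.4 and 74.5 with a wild-type mother. ApoE-null mother 1 and wild-type mother 1 were the highest of their groups, and the highest signal was 4.02 times the lowest. Its log2 fold change of -0.60 had a 95% interval of -1.39 to 0.20 (limma, adjusted p = 0.685), and was -0.88 without ApoE-null mother 1 and -0.32 without ApoE-null mother 3.

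Jun (chr4:95049036-95052222) and Junb (1415899_at, chr8:84976909-84978748) encode Jun subunits, of which Jun is the stronger activator and JunB can restrain it. Jun was read by 2 probe sets that spread differently. Probe set 1448694_at had 989.8, 664.1, 941.1 and 820.6 with an ApoE-null mother, against 818.3, 864.1 and 785.1 with a wild-type mother, so that the wild-type mother arrays lay within the range of the other group. Probe set 1417409_at had 859.4, 434.6, 707.2 and 967.8 with an ApoE-null mother, against 898.5, 548.5 and 784.5 with a wild-type mother. Both had their lowest signal on ApoE-null mother 2, but they differed in which array was highest. Their log2 fold changes were 0.04 (95% interval -0.31 to 0.39) and -0.03 (95% interval -0.61 to 0.54), and each changed sign when single arrays were left out (limma, adjusted p = 0.961 and 0.978).

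Junb had signals of 65.1, 43.5, 28.9 and 52.5 with an ApoE-null mother, against 65.4, 65.0 and 68.5 with a wild-type mother. The wild-type mother arrays were close together (SD 1.92), and ApoE-null mother 1 lay just above the lowest of them while the other 3 lay below. The log2 fold change was -0.52 with a 95% interval of -1.13 to 0.09 (limma, adjusted p = 0.6502), and -0.31 without ApoE-null mother 3. Junb was above the bacterial probe sets on all 7 arrays, although its lowest signal of 28.9 was near their highest on the same array, 20.4.

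Atf3 (1449363_at, chr1:191170296-191183333) encodes a stress-induced factor of the ATF and CREB family that can pair with Jun proteins and often represses. Its signals were 186.5, 85.5, 107.3 and 186.6 with an ApoE-null mother, against 283.1, 193.1 and 174.3 with a wild-type mother. ApoE-null mother 2 and 3 were lowest, wild-type mother 1 was highest, and the others lay close together. The mean was 141 ± 52.8 with an ApoE-null mother and 217 ± 58.15 with a wild-type mother (SD, n = 4 and n = 3). This gave the lowest fold change of the group, a log2 value of -0.66 with a 95% interval of -1.30 to -0.02, which did not pass (limma, unadjusted p = 0.0452, adjusted p = 0.601). It was -0.45 without ApoE-null mother 2.

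Egr1 (1417065_at) and Egr3 (chr14:70077317-70082613) encode zinc finger factors of the early growth response family. Egr1, which responds to serum and shear stress in vascular cells, had signals of 4293, 3282, 3153 and 2836 with an ApoE-null mother, against 4179, 4459 and 3590 with a wild-type mother. ApoE-null mother 1 again lay within the range of the other cross, and the other 3 arrays of its group lay below all wild-type mother arrays. The mean was 3391 ± 630 with an ApoE-null mother and 4076 ± 443 with a wild-type mother (SD, n = 4 and n = 3), a log2 fold change of -0.28 (SE 0.15; limma, adjusted p = 0.661). It was -0.40 to -0.20 when each array was left out.

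Egr3, which acts downstream of growth factor and antigen receptors, differed from Egr1 in direction. Probe set 1436329_at had 297.0, 214.0, 198.1 and 130.5 with an ApoE-null mother, against 215.0, 146.1 and 95.0 with a wild-type mother. The highest array was again ApoE-null mother 1 and the lowest was wild-type mother 3. The log2 fold change was 0.48 with a 95% interval of -0.19 to 1.15 (limma, adjusted p = 0.701), and 0.18 without wild-type mother 3. A second probe set, 1421486_at, was below the filter on low values and exceeded the bacterial probe sets on only 2 of 7 arrays. Its signals were 34.4, 2.7, 9.3 and 8.3 with an ApoE-null mother, against 8.3, 11.5 and 22.7 with a wild-type mother, and it was not tested. ApoE-null mother 1 was the highest array there as well.

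Ier2 (1416442_at, chr8:84661331-84662852) encodes a small nuclear protein induced by growth factors. Its signals were 380.6, 366.1, 270.8 and 383.0 with an ApoE-null mother, against 352.8, 394.0 and 482.3 with a wild-type mother, and 3 of 4 ApoE-null mother arrays lay within the range of the other group. This gave a log2 fold change of -0.23 with a 95% interval of -0.62 to 0.16 (limma, adjusted p = 0.751). It was -0.10 without wild-type mother 3.

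Zfp36 (1452519_a_at, chr7:28376784-28379228) and Dusp1 (1448830_at, chr17:26505591-26508472) act to end the response. Zfp36 encodes tristetraprolin, which binds AU-rich elements and speeds the decay of cytokine and early gene mRNAs. Its signals were 653.3, 457.6, 497.7 and 430.0 with an ApoE-null mother, against 701.9, 599.6 and 676.3 with a wild-type mother, so that only ApoE-null mother 1 overlapped. The mean was 509.7 ± 99.7 with an ApoE-null mother and 659 ± 53.2 with a wild-type mother (SD, n = 4 and n = 3), a log2 fold change of -0.39 with a 95% interval of -0.75 to -0.02. It had the smallest p of the 10 genes and did not pass (limma, unadjusted p = 0.0418, adjusted p = 0.598).

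Dusp1 encodes the phosphatase that inactivates the MAP kinases upstream of Fos and Egr1. Its signals were 4396, 3314, 3812 and 4207 with an ApoE-null mother, against 4095, 3629 and 3710 with a wild-type mother, and the wild-type mother arrays lay inside the range of the other group. The highest was 1.33 times the lowest, the narrowest range of the 12 probe sets. The log2 fold change was 0.04 (SE 0.13; limma, adjusted p = 0.952).

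**Figure D2:**
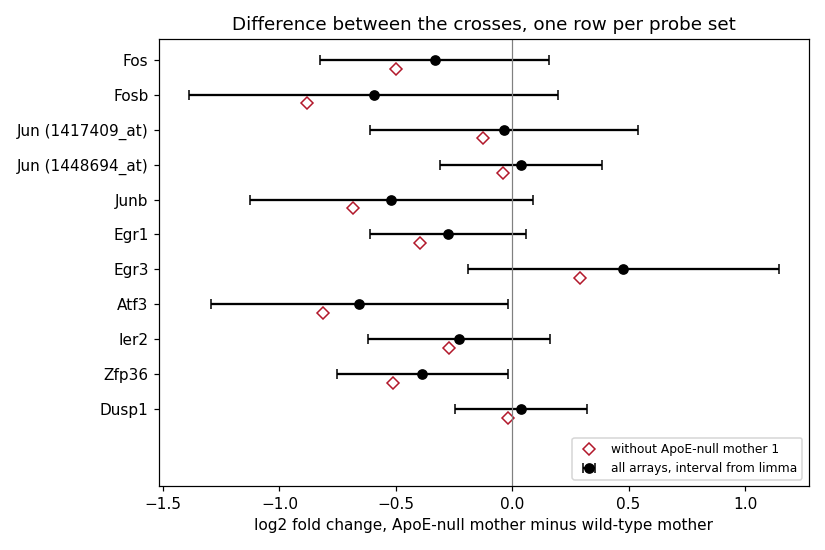
Log2 fold change, ApoE-null mother minus wild-type mother, of each tested probe set with its 95% interval (black), and the value without the array of ApoE-null mother 1 (open red diamonds). The intervals of Atf3 and Zfp36 end at -0.02, and all other intervals contain 0. Without ApoE-null mother 1, 10 of 11 values are negative. That array was singled out because all 10 genes were above their own means on it, which shifts the diamonds by construction.

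Many of the 10 genes deviated in the same direction on an array, and arrays of the same cross differed in that direction. With 1 probe set per gene, each centred on its mean over the 7 arrays, the mean over the 10 genes was 0.31, -0.25, -0.32 and -0.16 (log2) on the 4 ApoE-null mother arrays, against 0.31, 0.15 and -0.04 on the 3 wild-type mother arrays. On ApoE-null mother 1, 10 of 10 genes were above their own mean. On ApoE-null mother 2, 3 and 4, this held for 1, 2 and 3 genes. In the wild-type mother group the numbers were 8, 8 and 4 genes. The lowest signal lay on ApoE-null mother 2, 3 or 4 for 3 genes each, and on wild-type mother 3 for Egr3.

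**Figure D3:**
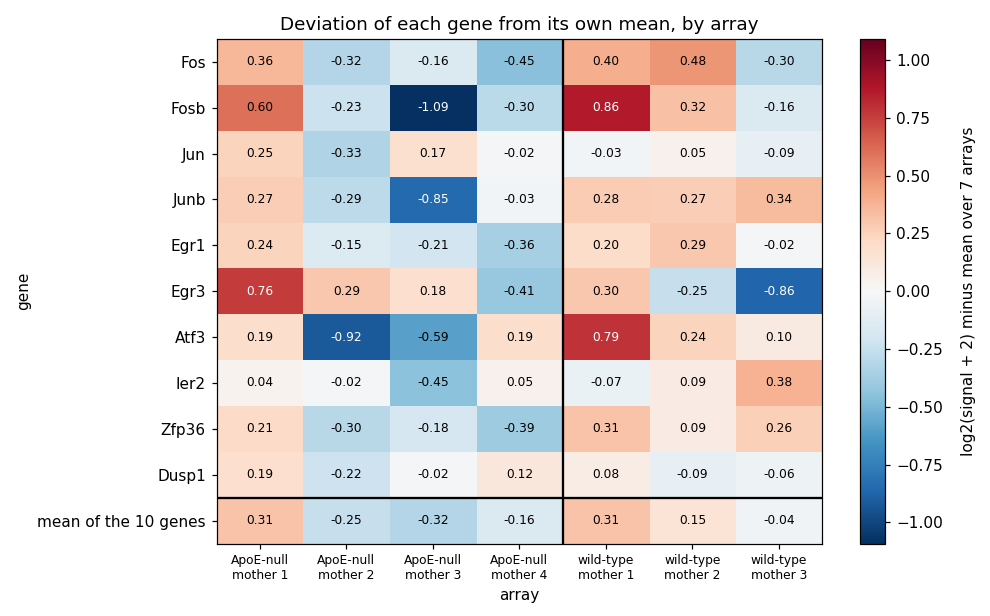
Deviation of each gene from its own mean over the 7 arrays (log2(signal + 2), 1 probe set per gene), with ApoE-null mother arrays left of the line and wild-type mother arrays right of it, and the mean of the 10 genes in the bottom row. The column of ApoE-null mother 1 is positive for all 10 genes (mean 0.31), as those of ApoE-null mother 2 and 3 are negative for most (means -0.25 and -0.32).

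The number of members at an unadjusted p under 0.05 was highest without ApoE-null mother 1, although single genes such as Fos, Egr3 and Ier2 moved further without another array. Zfp36, Egr1, Atf3, Fosb, Junb and Fos were then lower at an unadjusted p under 0.05, which was 6 of 11 member probe sets where 3.85% of all probe sets were lower at that level. Their log2 fold changes were -0.51, -0.40, -0.81, -0.88, -0.68 and -0.50, and 0 of the 11 passed after adjustment (limma, lowest adjusted p = 0.5003). The median over the member probe sets was -0.40, against -0.014 over all probe sets. These genes were high on ApoE-null mother 1, so leaving that array out lowers their mean in its group by construction. Many of the members also deviated in the same direction on an array, so the count of 6 is not one of separate observations and is no added support for a difference. Without ApoE-null mother 2 or 3, 0 members were lower or higher at that level. Without ApoE-null mother 4, Atf3 was lower and Egr3 higher, and without wild-type mother 1, Egr3 alone was higher, at a log2 fold change of 0.76. Zfp36 was lower without wild-type mother 2, and Fos and Atf3 were lower without wild-type mother 3. Over these 6 fits, 2.75% to 4.71% of all probe sets were lower and 2.69% to 5.47% higher at that level.

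Markers of the artery wall and of other tissues differed between arrays as well. Smooth muscle markers (6 of 6, all above background on every array) were centred as the 10 genes were. Their mean was 0.22, -0.21, -0.25 and 0.11 (log2) on the ApoE-null mother arrays, against -0.25, 0.14 and 0.23 on the wild-type mother arrays. ApoE-null mother 1, 2 and 3 and wild-type mother 2 had the same sign as the mean of the 10 genes. ApoE-null mother 4 and wild-type mother 1 and 3 had the opposite sign. The T cell and thymocyte list (6 of 7 genes on the array) had a summed signal of 365.9 to 543.1 with an ApoE-null mother, against 46.9 to 136.6 with a wild-type mother, and 1 of its genes was above background on every array. Skeletal muscle markers (6 of 6, 2 above background on every array) summed to 90.7 to 166.8 with an ApoE-null mother, against 146.9 to 2042 with a wild-type mother, where the maximum was on wild-type mother 2. Myh4, the myosin of fast muscle, was at 0.4 to 11.2 on the other 6 arrays. Markers of neurons and the carotid body (6 of 6, 5 above background on every array) summed to 323.5 to 915.2 with an ApoE-null mother, against 365.6 to 2781 with a wild-type mother, highest on wild-type mother 1. Of these, Uchl1 had 195.2 to 254.4 with an ApoE-null mother, against 267.1 to 696.6 with a wild-type mother, without overlap. Th, Chga, Scg2, Gap43 and Dbh overlapped. Adipocyte markers (4 of 5 on the array, 3 above background on every array) summed to 9641 to 14299.9 with an ApoE-null mother, against 4172 to 12204 with a wild-type mother. Erythroid markers (2 of 4 on the array, both above background on every array) summed to 492.0 to 1201 with an ApoE-null mother, against 276.7 to 636.1 with a wild-type mother. These ranges of both lists overlapped, as did those of Cidea, Adipoq, Lep and Alas2. Ucp1 had signals of 3146.6 to 5059.5 with an ApoE-null mother, against 420.1 to 2297.1 with a wild-type mother, without overlap. Slc4a1 had 48.7 to 82.9 with an ApoE-null mother, against 34.8 to 41.0 with a wild-type mother, also without overlap. Schwann cell markers (3 of 5 on the array, 2 above background on every array) summed to 535.6 to 2328 with an ApoE-null mother, against 1300 to 4510 with a wild-type mother. Of these, Cnp had 428.6 to 822.6 with an ApoE-null mother, against 909.2 to 2060.5 with a wild-type mother, without overlap. Mbp and Sox10 overlapped. The part of these cells in the values of the early genes was not tested, and in whole tissue, fewer cells of a type and less RNA per cell cannot be told apart.

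The spread between arrays of the same cross separated the genes. The within-group SD of Fos was 0.39 on the log2 scale, larger than in 96.0% of the probe sets of like signal (500 on each side in mean signal), whose median was 0.19. The SDs of Fosb (0.62), Egr3 (0.52) and Atf3 (0.49) exceeded those of 93.6%, 94.7% and 93.2% of their neighbours. Those of Dusp1 (0.15), Zfp36 (0.22) and Ier2 (0.23) exceeded 33.9%, 48.4% and 50.9%. Egr1 (67.2%) and Junb (54.7%) lay between. The Jun probe sets disagreed, with 95.7% for 1417409_at and 48.4% for 1448694_at. These ranks describe 7 arrays and were not tested.

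**Figure D4:**
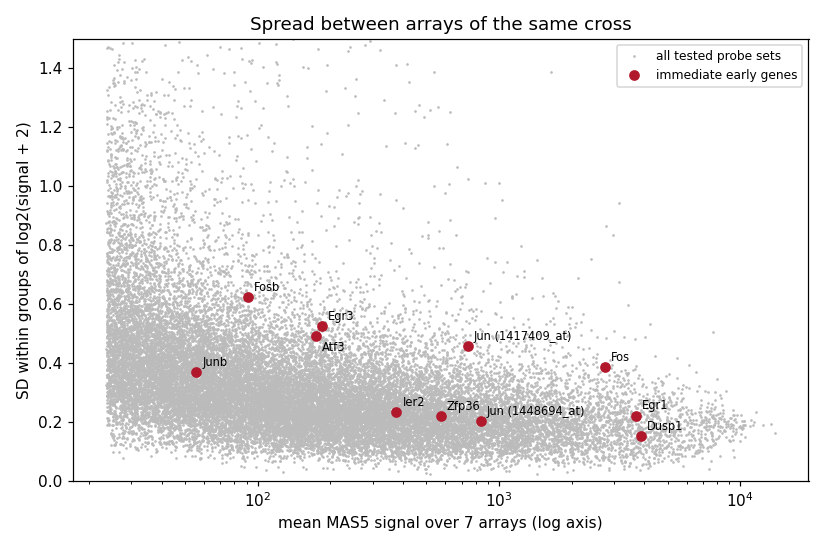
SD within groups of log2(signal + 2) against mean signal (log axis) for all tested probe sets in grey and the 11 member probe sets in red; 119 grey probe sets lie above the top of the axis at 1.5. Fos, Fosb, Egr3, Atf3 and Jun probe set 1417409_at lie near the upper edge of probe sets of like signal, and Dusp1 lies below their middle.

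Of 12107 other named genes, 19 lay closer to the mean profile of the 10 genes than any of the 10 did. A search over so many genes on 7 arrays can find close profiles in unrelated genes. Whether these share anything with the 10 was not tested. Among 12107 other named genes, the closest to the members' mean profile over the 7 arrays were Gpr19, Tmem39b, Mocos, Smc1a, Prrt1, Gypc, Cux1 and Mindy1, with a root mean square difference of 0.056 to 0.103 log2 units. Gpr19, an orphan receptor gene, had signals of 173.8, 108.7, 107.2 and 116.5 with an ApoE-null mother, against 165.1, 143.9 and 140.7 with a wild-type mother. Smc1a, a cohesin subunit gene, had 1055, 771.0, 675.7 and 872.9 with an ApoE-null mother, against 1039, 1058 and 865.3 with a wild-type mother. Of the members themselves, Egr1 was closest to the mean profile at 0.12 and Egr3 farthest at 0.48, and 19 non-members were closer than Egr1. The median of the 12107 genes was 0.338, and Fosb (0.386), Atf3 (0.361) and Egr3 lay farther from the mean profile than that. This measure grows with the width of a gene's swings as well as with differences in direction, so a flat gene can score as near. Fosb deviated in the same direction as the mean profile on every array, but more widely. Of the 8 named genes, 0 were in the lists of early response genes below.

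Other genes of the response were read from 6 lists with 114 entries, of which 100 were tested. After adjustment, 0 were called higher and 0 lower (limma, lowest adjusted p = 0.383). At an unadjusted p under 0.05, 9 of the 100 were higher and 7 lower, where 4.30% of all probe sets were higher and 3.96% lower. The log2 fold change was positive for 57 and negative for 43, with a median of 0.05, against a median of -0.31 for the 10 genes.

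Among other immediate early transcription factors, 10 of 22 tested were positive and 12 negative, with a median of -0.07. Cebpb, a factor of inflammatory and acute phase responses, had signals of 602.6, 683.5, 816.1 and 660.0 with an ApoE-null mother, against 442.9, 425.5 and 450.2 with a wild-type mother, without overlap. Its log2 fold change of 0.64 did not pass (limma, adjusted p = 0.418), and was 0.56 to 0.70 when each array was left out. A second, weaker Cebpb probe set was at 0.43 (limma, adjusted p = 0.713). Nr4a1, a nuclear receptor induced together with Fos by many stimuli, had signals of 674.8, 376.1, 541.7 and 584.6 with an ApoE-null mother, against 422.0, 282.6 and 358.9 with a wild-type mother, a log2 fold change of 0.60 (limma, adjusted p = 0.549). Npas4, a neuronal activity gene, had a log2 fold change of -1.48 but exceeded the bacterial probe sets on only 4 of 7 arrays, so its value rests partly on background.

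Other feedback inhibitors had 16 of 20 tested genes positive, 4 negative and a median of 0.17, where 50.6% of all probe sets were negative. Of the members that end the response, Zfp36 was at -0.39 and Dusp1 at 0.04. At an unadjusted p under 0.05, 5 of the 20 were higher and 0 lower, where 4.30% of all probe sets were higher and 3.96% lower. Dusp4, a phosphatase of nuclear MAP kinases, had signals of 115.2, 96.1, 150.2 and 133.6 with an ApoE-null mother, against 89.2, 60.4 and 33.8 with a wild-type mother, a log2 fold change of 1.08 (limma, adjusted p = 0.474) that was 0.72 without wild-type mother 3. Nab1, a corepressor of EGR proteins, had a log2 fold change of 0.30 (limma, adjusted p = 0.559), and its other probe sets were at -0.02 and 0.58. Zfp36l2, a relative of Zfp36, was at 0.64 (limma, adjusted p = 0.570), and at 0.30 without wild-type mother 2. The T cell markers named above were higher on the same arrays, and their part in these values was not tested.

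Among 18 other early response genes tested, 9 were positive and 9 negative. Hbegf, a membrane-bound growth factor of the EGF family, had signals of 229.4, 230.4, 227.0 and 268.3 with an ApoE-null mother, against 376.9, 367.3 and 415.9 with a wild-type mother. The groups did not overlap, the log2 fold change was -0.69 (SE 0.15), and its second probe set was at -0.54, but it did not pass (limma, adjusted p = 0.383). Gadd45b, a stress sensor, was at -0.75 and -0.50 without wild-type mother 2 (limma, adjusted p = 0.551 with all arrays). The other Gadd45b probe sets were at -0.33 and -0.57 (limma, adjusted p = 0.811 and 0.684). Ccn1, a matricellular protein gene driven by serum response factor and YAP, had 1989, 824.7, 754.4 and 1061 with an ApoE-null mother, against 1429, 1698 and 1855 with a wild-type mother. ApoE-null mother 1 was the highest array for Ccn1 too, and the log2 fold change was -0.62 (limma, adjusted p = 0.604), with -0.65 to -0.31 for its other 3 probe sets.

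Upstream kinases and factors had small differences, with 14 of 18 tested positive and a median of 0.08. Creb1, a factor that binds the TGACG core, was at 0.46 (limma, adjusted p = 0.601), but its other probe sets were at -0.08 and 0.13. Prkaca, a catalytic subunit of protein kinase A, was at 0.33 and its second probe set at -0.21 (limma, adjusted p = 0.610 and 0.739). Crtc2, a coactivator of CREB, was at -0.39 and its second probe set at -0.47 (limma, adjusted p = 0.703 and 0.698).

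Genes known as targets of AP-1 and EGR factors had a median of -0.07, with 5 of 14 tested positive and 9 negative. Mmp3, which encodes stromelysin, had signals of 1009, 1187, 1654 and 1602 with an ApoE-null mother, against 916.5, 617.3 and 990.0 with a wild-type mother, without overlap, and a log2 fold change of 0.69 (limma, adjusted p = 0.5097). Ccnd1, which encodes cyclin D1, was at -0.52, with -0.48 and -0.21 for its other probe sets (limma, adjusted p = 0.555 for the first). Cxcl1, a neutrophil chemokine gene, was at -0.72 (limma, adjusted p = 0.610), while its other probe sets were at -0.40 and 0.10.

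Heat shock genes, which are also induced by stress on tissue, had 3 of 8 tested positive, 5 negative and a median of -0.13. Hspa1a, Hspa1b and Dnajb1 were at -0.12, 0.04 and 0.01. Bag3 was at -0.14 without overlap, and Hspe1 was at 0.14. Hsph1, a large chaperone, had signals of 1222, 2391, 1680 and 1644 with an ApoE-null mother, against 2689, 2617 and 2512 with a wild-type mother, without overlap, a log2 fold change of -0.63 (limma, adjusted p = 0.508). ApoE-null mother 1, the highest array of its group for 8 of the 10 early genes, was the lowest array for this Hsph1 probe set. The second Hsph1 probe set was at -0.36 (limma, adjusted p = 0.810). Hspa8, the constitutive member of the HSP70 family, was at -0.49 without overlap (limma, adjusted p = 0.508), and 2 of its other probe sets were at -0.45 and -0.31, while the weakest, with mean signals of 107 with an ApoE-null mother and 67.3 with a wild-type mother, was at 0.95. Hspb1, a small heat shock protein, was at -0.27 and its second probe set at -0.56 (limma, adjusted p = 0.627 and 0.523).

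**Figure D5:**
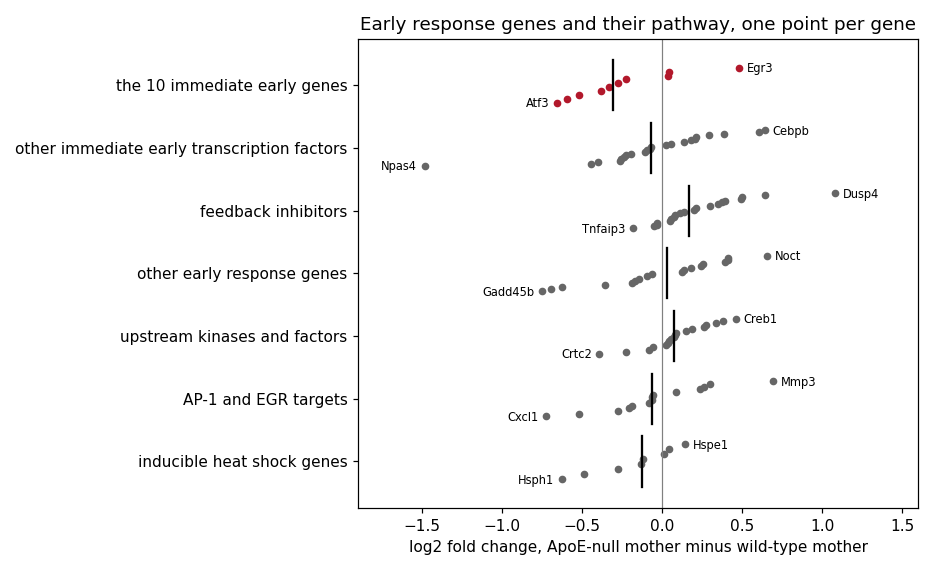
Log2 fold change, ApoE-null mother minus wild-type mother, of each tested gene (1 probe set per gene) in the group of 10 (red) and in 6 lists of related genes (grey), with a black bar at the median of each. The median of the 10 genes is -0.31, that of the feedback inhibitors 0.17 and that of the heat shock genes -0.13; no gene shown passed the test.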

How the data were processed

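RNA of 7 carotid artery samples was analysed. Each deposited value is an MAS5 intensity on a linear scale, and per the submitters' processing notes GCOS and MAS5 were used; no version is stated there. All arrays had an equal 2% trimmed mean, which shows that the deposited intensity values were already scaled, and nothing was added to that scaling. Groups were taken from the cross in the labels. A pseudocount of 2, the 10th percentile of all signals as a whole number, was added before taking log2, so that fold changes of weak genes are understated. Without the 64 control probe sets and those whose mean did not exceed the 40th percentile (23.6), 27027 were tested. Both groups entered 1 limma model (version 3.58.1, R 4.3.3; lmFit, then eBayes with trend) with no covariates. The coefficient is the ApoE-null mother group minus the other, adjusted after Benjamini-Hochberg at a threshold of 0.05, and the code was tested on simulated data. Gene names came from the platform annotation. For lists, the tested probe set of highest mean stood for each gene. The members were all named, as were the 3 genes of smallest p per list and the 8 genes nearest to the members' mean profile, with predicted and clone names passed over. The members and lists were chosen with earlier results of these data known. The number of arrays limits the precision. Alternatives were a pseudocount of 32, no filter, quantile normalisation, no trend and leaving out each array.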

Additional observations from a re-analysis of the deposited data

Results flagged for a closer look

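Ier2 had 1 ApoE-null mother array far from the other 3. ApoE-null mother 3 was at 270.8, against 366.1 to 383.0 on the others, and the gap was 0.87 of the group's whole range on the log2 scale, above Dixon's critical value for 4 samples. Such a gap appears by chance in about 1 of 20 groups, and 12 member probe sets were examined.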

How the results depend on the processing

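The count of 0 member probe sets and of 0 wider early response genes past the test was the same under all 11 alternatives (limma, lowest adjusted p of a member 0.463). Of 121 member values under alternatives, 115 kept their direction and 6 changed it. These 6 were small values under leaving out 1 array: Jun probe set 1417409_at was at -0.24 to 0.20, with 0.12 and 0.02 without wild-type mother 1 and 3 and 0.20 without ApoE-null mother 2. Jun probe set 1448694_at was at -0.04 to 0.15, with -0.038 and -0.01 without ApoE-null mother 1 and 3. Dusp1 was at -0.018 to 0.12, with -0.018 without ApoE-null mother 1. The count of all probe sets past the test was 2 with quantile normalisation, 0 without an intensity trend and 0 to 18 when each array was left out, and the cause was not tested. Quantile normalisation left the median of the member probe sets at -0.28. The count of members at an unadjusted p under 0.05, in either direction, was 2 with all arrays, 0 without an intensity trend and 0 to 6 when each array was left out. In an alternative chosen after seeing the data, the difference in the Gapdh ratio was -0.80 to 0.585 and that in the Actb ratio -1.45 to 0.82 when each array was left out, and both turned positive without wild-type mother 2. No paired analysis was possible because the labels number the arrays in separate blocks for the groups.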
